A study of Mus with 9 samples.

Results

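Fibroblast growth factors (FGFs) and platelet-derived growth factors (PDGFs), with their receptors and binding proteins, were examined in a mouse model of myocardial infarction. The genes were taken by name: those whose symbol begins with Fgf and a digit, Fgfr, Fgfbp or Pdgf, which gave 40 of the 55421 genes in the count table. They comprise 15 secreted FGF ligands, 3 endocrine FGFs, 4 intracellular FGF genes, 5 FGF receptors, 2 FGF binding proteins, 4 PDGF ligands and 3 PDGF receptors or receptor-like genes. The other 4 were caught by name only: the antisense transcript Fgf2os, the pseudogene Fgfr3-ps, and Fgfr1op and Fgfr1op2, which were named after fusion partners of Fgfr1 and do not encode receptors. Enough reads for a test were present for 28 of the 40. Of the remaining 12, Fgf3, Fgf4, Fgf20 and Fgfr3-ps had no read in any library.

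Bulk messenger RNA was sequenced from samples labelled atria, left atrium in the series text, of male wild-type C57BL/6J mice 8 to 10 weeks old, with 3 libraries per group. The groups were permanent ligation of the left anterior descending coronary artery with the antimalarial artesunate (MI_ART 1 to 3), the same ligation with vehicle (MI 2, MI 3 and MI 4), and sham surgery with vehicle (Sham 1 to 3). The labels give the artesunate dose as 25 mg/kg daily for 7 days from surgery in one place, and as 10 mg/kg every other day from 2 days before surgery to day 7 in another. They also conflict on mice versus rats and on RNA extraction. The day of tissue collection was not given in the sources used here. The labels do not say whether the 3 libraries of a group came from 3 mice, so the p-values describe the spread of these libraries, part of which may be technical. Total counts were 68046341 to 83685313 per library.

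The samples held atrial and ventricular transcripts in varying proportion. The ratio of Myl2, the ventricular regulatory myosin light chain, to Myl7, its atrial counterpart, was 5.45, 1.22 and 784 in MI_ART 1 to 3, 1.87, 2.36 and 0.460 in MI 2 to 4, and 3.64, 17.7 and 6.57 in Sham 1 to 3. MI_ART 3 held far less atrial transcript than the others, with Myl7 at 1.96 CPM (counts per 1000000 of the library total, after edgeR's TMM scaling). Sham 1 held Scgb1a1, a secretory product of airway club cells, at 123 CPM, from 6664 reads, whereas the other 8 libraries had at most 6 reads. Of the other lung genes looked at, Sham 1 had 96 reads of Sftpd, 20 of Sftpa1 and 0 of Sftpc and Sftpb. MI 4 had 15 reads of Sftpa1. In bulk tissue, fewer cells of a type and less RNA per cell cannot be told apart.

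FGFs are heparin-binding signals. The secreted members act on tyrosine kinase receptors together with heparan sulfate, the endocrine members act with Klotho co-receptors, and the intracellular members are not secreted and bind voltage-gated sodium channels. PDGFs are dimers that act on the receptor kinases Pdgfra and Pdgfrb. In the heart, Pdgfra marks fibroblasts, Pdgfrb marks pericytes and smooth muscle, and both are also found on fibroblasts that make scar. FGF and PDGF receptors signal through adaptors to RAS, ERK and PI3K, and ERK activity induces its own inhibitors.

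After infarction 2 PDGF ligands, a PDGF receptor-like gene and the main FGF receptor gene were higher, and 3 FGF ligands known from the heart and 1 PDGF ligand were lower. In MI against Sham 4 members rose (Pdgfrl, Pdgfc, Pdgfb and Fgfr1) and 4 fell (Fgf16, Fgf9, Fgf1 and Pdgfd), by edgeR's quasi-likelihood test with Benjamini-Hochberg adjustment over 19326 genes. That is 28.6% of the 28 tested members, against 33.1% of all tested genes (18.8% higher and 14.3% lower), so the members were not called more often than the background. Without adjustment 13 members had p under 0.05, against 43.9% of all genes. The median log2 fold change was -0.27 over the tested members and 0.04 over all tested genes. In MI_ART against Sham 3 rose (Pdgfc, Pdgfrl and Fgfr1) and 1 fell (Pdgfd), which is 14.3% of tested members against 20.3% of all genes (12.9% higher and 7.41% lower), and 10 members had an unadjusted p under 0.05, against 33.3% of all genes. Both comparisons share the Sham libraries. In MI_ART against MI no member passed, against 0.0103% of all genes (2 genes). Scaled by total counts instead of TMM, the median of all genes itself shifted by 0.88 in MI against Sham. Of all 19326 tested genes 9528 were then higher and 644 lower in MI, and 8032 higher and 124 lower in MI_ART. The members' split in MI became 9 higher and 1 lower, and counts with total counts are to be read against these. Without MI 4 and MI_ART 3, the libraries with the lowest and the highest ratio of Myl2 to Myl7, MI against Sham gave 5 higher and 5 lower, MI_ART against Sham gave 3 higher and 5 lower, and MI_ART against MI none. Without Sham 1 the counts were 3 higher and 5 lower in MI, and 1 higher and none lower in MI_ART. The MI_ART counts rested on single libraries elsewhere too, with 1 to 6 higher and 0 to 6 lower as each of the 9 was left out in turn. Over all genes MI_ART against Sham gave 2488 higher and 1433 lower in the main fit. With 1 library left out it gave 1596 to 3434 higher and 455 to 2896 lower, and counts without a library are to be read against these.

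Groups that do not overlap were common throughout the table. MI lay wholly above Sham in 5 members (the 4 that rose and Fgfr2) and wholly below in 6 (the 4 that fell, Fgf14 and Fgfr1op2), 39.3% of members against 48.9% of all genes (25.7% above and 23.2% below). MI_ART lay wholly above Sham in 6 (Fgfr1, Pdgfb, Pdgfc, Pdgfra, Pdgfrb and Pdgfrl) and wholly below in 6 (Fgf1, Fgf9, Fgf14, Fgf16, Fgfr1op2 and Pdgfd), 42.9% of members against 48.2% of all genes (25.4% above and 22.8% below).

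**Figure D1:**
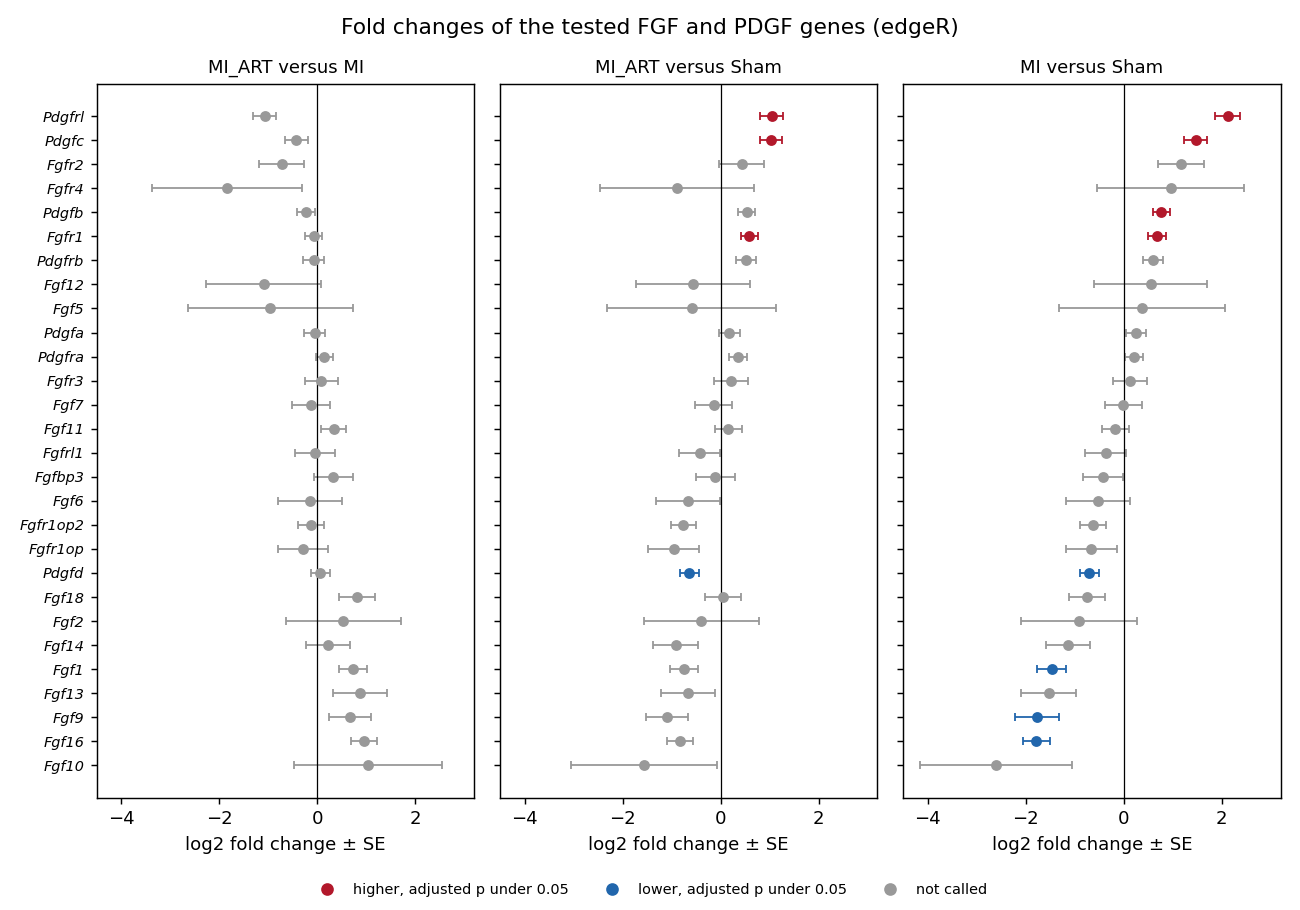
Log2 fold change of each of the 28 tested genes with its standard error (SE) in 3 comparisons, from edgeR, with genes ordered by MI versus Sham. Red and blue points passed an adjusted p of 0.05, and grey points did not. Pdgfrl and Pdgfc stand at the top and Fgf16, Fgf9 and Fgf1 near the bottom of MI versus Sham, and no point passed in MI_ART versus MI.

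Among the PDGF ligands, Pdgfb and Pdgfc were higher and Pdgfd lower after infarction. PDGF-B is the classical ligand of both receptors, made by endothelium and platelets, and recruits pericytes to vessels. Pdgfb (chromosome 15, 79995865 to 80024614 in GRCm38) was at 35.2, 35.6 and 40.9 CPM in MI_ART, 37.9, 41.5 and 52.7 CPM in MI and 24.9, 29.9 and 22.5 CPM in Sham. All 6 infarcted libraries lay above all Sham libraries. The rise in MI was 1.71-fold (log2 0.77, SE 0.18, edgeR adjusted p = 0.00896). In MI_ART the log2 fold change against Sham was 0.53 (edgeR adjusted p = 0.0646), and it passed without MI 4 (adjusted p = 0.0151).

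Pdgfc encodes a ligand that is secreted in latent form and is released by proteolysis to act on Pdgfra. Pdgfc (chromosome 3, 81036416 to 81214040) was at 7.53, 10.6 and 7.21 CPM in MI_ART, 11.0, 12.8 and 10.3 CPM in MI and 5.12, 3.48 and 3.75 CPM in Sham. No infarcted library overlapped Sham. It rose 2.76-fold in MI (log2 1.47, SE 0.24, edgeR adjusted p = 0.00137) and 2.05-fold in MI_ART (log2 1.03, SE 0.23, edgeR adjusted p = 0.0131). The MI call held with each library left out in turn, and the MI_ART call was lost without Sham 2 (adjusted p = 0.0550) or Sham 3 (0.0560).

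Pdgfd, a latent ligand of Pdgfrb, went the other way on this scale. It was at 6.31, 6.16 and 5.15 CPM in MI_ART, 6.22, 5.67 and 5.05 CPM in MI and 8.33, 9.80 and 9.42 CPM in Sham, with no overlap between either infarcted group and Sham. The log2 fold change was -0.70 in MI (SE 0.19, edgeR adjusted p = 0.0171) and -0.64 in MI_ART (SE 0.19, edgeR adjusted p = 0.0370), and with total counts it turned to 0.14 and 0.09 without passing. The MI call was lost without Sham 2 (adjusted p = 0.0602) or Sham 3 (0.0518), and the MI_ART call was lost with any library left out except MI 2 or MI 4 (adjusted p up to 0.149).

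Pdgfa, the ligand of Pdgfra homodimers, was at 12.6, 16.9 and 13.5 CPM in MI_ART, 11.6, 17.3 and 16.1 CPM in MI and 11.8, 14.5 and 11.6 CPM in Sham, and the 3 groups overlapped. The makeup of the ligand transcripts does not depend on library scaling. Pdgfd made up 10.2, 8.91 and 7.72% of the counts of the 4 ligand genes in MI_ART, 9.32, 7.34 and 6.01% in MI and 16.6, 17.0 and 19.9% in Sham, so every infarcted library was below every Sham library. A share also falls when the other genes rise, so this does not show a fall of Pdgfd itself. Unscaled, Pdgfd had 546, 529 and 469 reads in MI and 452, 496 and 492 in Sham. Pdgfb had 3329, 3868 and 4895 reads in MI and 1352, 1512 and 1177 in Sham. Pdgfc made up 12.8% ± 2.27 in MI_ART, 15.1% ± 2.53 in MI and 8.06% ± 2.09 in Sham (SD, n = 3 each). Pdgfb made up 56.6% ± 4.91, 57.7% ± 4.60 and 49.7% ± 2.12 in MI_ART, MI and Sham. The difference of 8.02 percentage points between MI and Sham gave an exact two-sided permutation p of 0.1, below which 2 groups of 3 cannot go, and 0.6 after adjustment over the 12 share comparisons made. These are shares of raw reads without correction for transcript length, so they compare libraries and not genes.

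**Figure D2:**
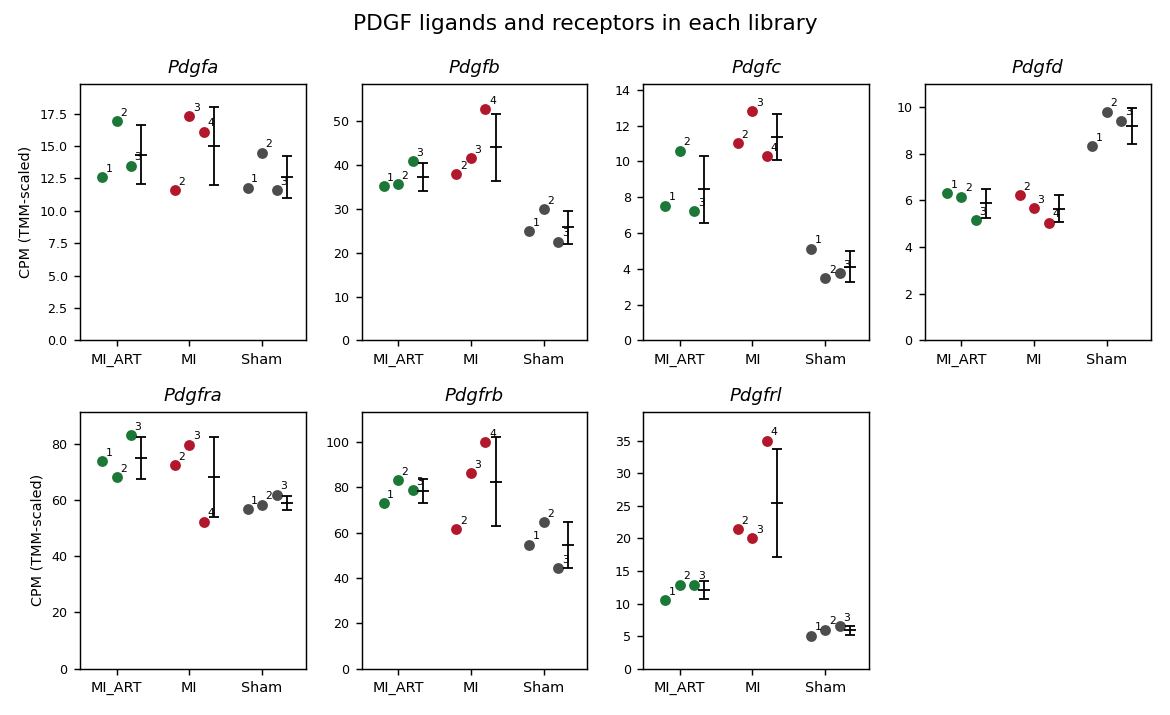
CPM of the PDGF ligands and receptors in each library, with the library number beside each point and the group mean ± SD (n = 3) at its right. Pdgfb, Pdgfc and Pdgfrl are above Sham and Pdgfd is below Sham in all 6 infarcted libraries on this TMM scale.

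Neither PDGF receptor passed in any of the 3 comparisons. Pdgfra (chromosome 5, 75151322 to 75198206) was at 73.8, 68.1 and 83.0 CPM in MI_ART, 72.4, 79.6 and 52.2 CPM in MI and 56.7, 58.3 and 61.8 CPM in Sham. MI 4 was the lowest of all 9 libraries, while MI_ART did not overlap Sham. The log2 fold change in MI was 0.21 (SE 0.18, edgeR adjusted p = 0.414), or 0.37 without MI 4 (adjusted p = 0.0401). Pdgfrb (chromosome 18, 61045127 to 61085067) was at 72.9, 83.2 and 78.8 CPM in MI_ART, 61.5, 86.2 and 99.9 CPM in MI and 54.6, 64.7 and 44.2 CPM in Sham. MI 2 lay within the Sham range, and the log2 fold change in MI was 0.60 (SE 0.21, edgeR adjusted p = 0.0539). It passed without MI 2 (adjusted p = 0.0167).

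The balance of the 2 receptors was not shown to differ between groups. Pdgfra made up 50.3, 45.0 and 51.3% of the summed reads of both receptors in MI_ART, 54.1, 48.0 and 34.3% in MI and 50.9, 47.4 and 58.3% in Sham, and the exact permutation p for MI against Sham was 0.5. Markers of the cells that carry the receptors moved in part with infarction, where 18.8% of all tested genes rose and 14.3% fell in MI against Sham. Of 10 fibroblast markers 7 rose and 2 fell in MI against Sham, with a summed level of 7670 to 8430 CPM in MI_ART, 7560 to 9970 in MI and 3580 to 4000 in Sham, and none was at 0. The sum does not follow each marker. Col1a1 was at 646, 749 and 1240 CPM in MI and 45.5, 38.0 and 31.6 CPM in Sham. Dcn was at 647, 591 and 606 CPM in MI and 901, 794 and 1050 CPM in Sham. Of 8 pericyte markers 1 rose and 4 fell, with a summed level of 780 to 836 CPM in MI_ART, 466 to 681 in MI and 1270 to 1390 in Sham, again with none at 0, and with total counts 3 rose and 3 fell. Of 5 smooth muscle markers none passed, with a summed level of 463 to 999 CPM in MI_ART, 426 to 1570 in MI and 277 to 1280 in Sham. The part of these cell types in the receptor levels was not tested.

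Pdgfrl had the highest fold change of the 28 tested members in MI against Sham. It encodes a secreted protein that resembles the outer part of a PDGF receptor and lacks a kinase. Pdgfrl (chromosome 8, 40926233 to 40990782) was at 10.5, 12.9 and 12.9 CPM in MI_ART, 21.4, 20.0 and 35.0 CPM in MI and 5.09, 5.96 and 6.55 CPM in Sham. The 3 groups did not overlap, with MI_ART between MI and Sham. It rose 4.34-fold in MI (log2 2.12, SE 0.25, edgeR adjusted p = 0.000263) and 2.06-fold in MI_ART (log2 1.04, SE 0.24, edgeR adjusted p = 0.0139). The MI_ART call was lost without Sham 1 (adjusted p = 0.0583) or MI_ART 3 (0.0507).

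Among the FGF ligands, Fgf1, Fgf9 and Fgf16 fell after infarction. Fgf1, the acidic FGF that binds every FGF receptor, overlaps Arhgap26 in the annotation (chromosome 18, 38838672 to 38929470), and without strand information reads of an overlap cannot be assigned. Fgf1 was at 112, 128 and 148 CPM in MI_ART, 104, 88.0 and 43.7 CPM in MI and 198, 200 and 255 CPM in Sham. The 3 groups did not overlap. It fell by 1.47 on the log2 scale in MI (SE 0.29, edgeR adjusted p = 0.00402), and this call was lost with total counts (log2 -0.62, adjusted p = 0.0764). In MI_ART the log2 difference from Sham was -0.75 (SE 0.29, edgeR adjusted p = 0.0961). It passed without MI 4 (adjusted p = 0.00585) and turned to 0.00 with total counts.

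Fgf9 and Fgf16 belong to a single subfamily whose members act on growing heart muscle. Fgf9 (chromosome 14, 58070671 to 58112854) was at 4.10, 4.26 and 4.72 CPM in MI_ART, 4.01, 3.31 and 0.884 CPM in MI and 9.70, 9.30 and 9.04 CPM in Sham. MI 4 was the lowest, and no infarcted library overlapped Sham. It fell by 1.77 on the log2 scale in MI (SE 0.44, edgeR adjusted p = 0.0125), a call lost with total counts (-0.94, adjusted p = 0.0925). In MI_ART it stood at -1.10 against Sham (edgeR adjusted p = 0.106), and at an adjusted p of 0.00112 without MI 4.

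Fgf16 (chromosome X, 105764477 to 105776532), found mainly in heart muscle and brown fat, was at 4.80, 4.70 and 7.03 CPM in MI_ART, 3.66, 2.87 and 2.05 CPM in MI and 9.62, 11.0 and 8.85 CPM in Sham. The 3 groups did not overlap. It fell by 1.78 on the log2 scale in MI (SE 0.27, edgeR adjusted p = 0.00102), and passed under all 19 alternatives run, total counts included (-0.95). In MI_ART it stood at -0.83 (SE 0.27, edgeR adjusted p = 0.0522), and it passed in 8 of the 19, without MI 2 (adjusted p = 0.0457) and without MI 4 (0.0167) among them.

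On the TMM scale the summed ventricular muscle markers were lower in the infarcted groups, as these ligands were, and no atrial muscle marker passed. Of 5 ventricular muscle markers 3 fell in MI against Sham, with a summed level of 2920 to 4480 CPM in MI_ART, 1660 to 3030 in MI and 7580 to 8450 in Sham, and none was at 0. In MI_ART against Sham 2 fell. With total counts 2 fell in MI, and in MI_ART 1 rose and 1 fell. On the TMM scale 14.3% of all tested genes fell in MI and 7.41% in MI_ART. MI 4 was the lowest of the 9 libraries in the ventricular sum, in Fgf1, in Fgf9 and in Fgf16. Of 6 atrial muscle markers none passed, with a summed level of 1320 to 12500 CPM in MI_ART, 13500 to 25200 in MI and 1820 to 7480 in Sham. The sum in MI lay wholly above Sham, with MI 4 the highest of the 9. Myl4 lay above Sham too, whereas Myl7 (347 to 989 CPM in MI, 168 to 822 in Sham) and Sln overlapped. The sum does not follow these genes alone. In MI_ART 3 it was 1320 CPM, with Myl7, Myl4 and Sln at 1.96, 6.21 and 0.740 CPM. The atrial median log2 fold change was 0.67 in MI and -0.53 in MI_ART. The part of muscle content in the ligand levels was not tested.

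**Figure D3:**
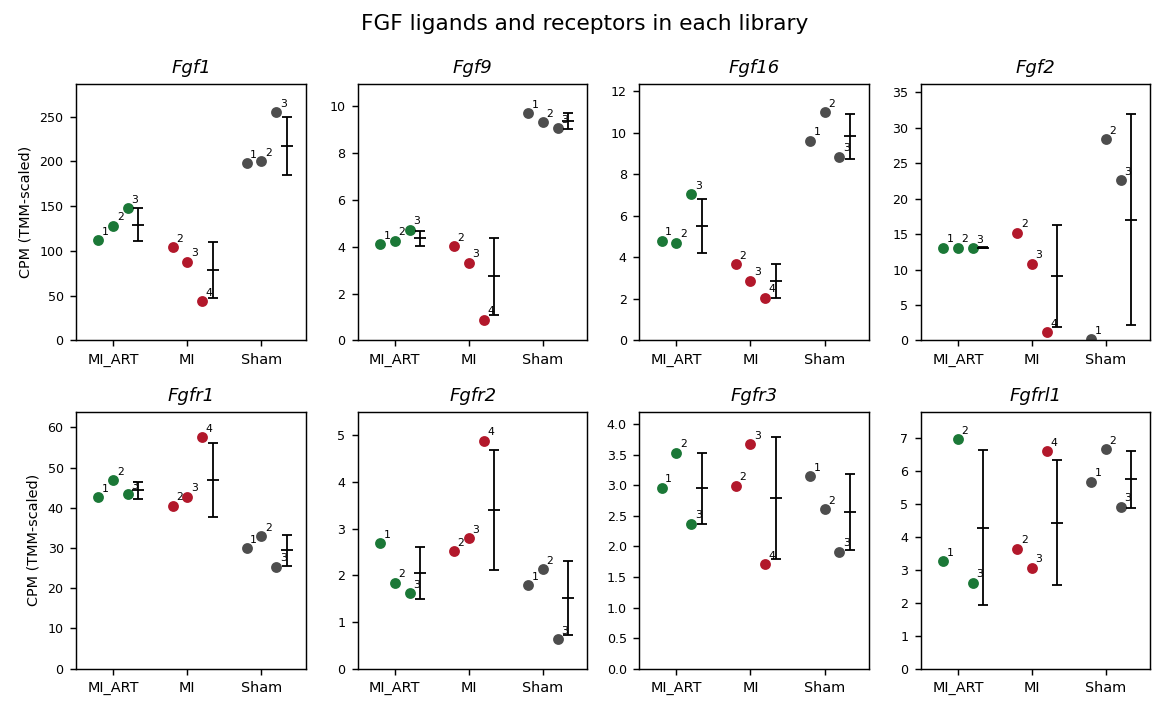
CPM of 4 secreted FGF ligands and 4 FGF receptors in each library, with the library number beside each point and the group mean ± SD (n = 3) at its right. Fgf1, Fgf9 and Fgf16 are below Sham and Fgfr1 is above Sham in all 6 infarcted libraries, and Fgf2 is near 0 in Sham 1 and low in MI 4.

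Fgf2, the basic FGF and a wound and vessel growth factor, was set apart by single libraries. It was at 13.1, 13.1 and 13.0 CPM in MI_ART, 15.2, 10.8 and 1.19 CPM in MI and 0.166, 28.4 and 22.6 CPM in Sham. Sham 1 had 9 Fgf2 reads and MI 4 had 110, against at least 1005 in each of the other 7 libraries. The annotated gene (chromosome 3, 37348477 to 37410106) overlaps the antisense gene Nudt6 (37404982 to 37420242), which was at 11.8 CPM in Sham 1 and 17.0 and 17.4 CPM in Sham 2 and 3. No comparison of Fgf2 passed (edgeR adjusted p = 0.591 in MI against Sham), and none passed under any of the 19 alternatives, those without Sham 1 or without MI 4 included.

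The other secreted ligands had few reads. Fgf7, a fibroblast product that acts on epithelium, averaged 2.10 ± 0.922 CPM in MI_ART, 2.30 ± 0.737 in MI and 2.32 ± 0.589 in Sham (SD, n = 3 each). Fgf18 was at 2.32, 3.19 and 2.45 CPM in MI_ART, 2.20, 1.14 and 1.25 CPM in MI and 3.65, 1.96 and 2.09 CPM in Sham. Fgf10, which directs lung budding and fat development, was at 0, 0.500 and 0.0616 CPM in MI_ART, 0, 0.0536 and 0.216 CPM in MI and 1.03, 0.474 and 0.153 CPM in Sham. It was highest in Sham 1, the library with Scgb1a1, and next in MI_ART 2 and Sham 2, which had 6 and 0 reads of Scgb1a1. Whether Fgf10 and Scgb1a1 are linked was not tested. Fgf5, Fgf6 and Fgf22 reached at most 0.442, 0.830 and 0.160 CPM. Fgf8 had 4 reads, all in MI 4, and Fgf17 had 8, all in MI_ART 1. None of these passed where it was tested.

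The endocrine ligand Fgf23, a phosphate-regulating hormone known from bone, had too few reads for the main test. It had 0, 9 and 0 reads in MI_ART, 6, 77 and 346 in MI, and none in the 3 Sham libraries, where a floor of 3 reads stands for 0.0553 to 0.0592 CPM. The MI libraries differed widely, with 3.73 CPM in MI 4 and 0.0683 CPM in MI 2. With no low count filter Fgf23 was called higher in MI than in Sham, and DESeq2 called it as well. Fgf21, a metabolic hormone of liver, had 4 reads in each MI_ART library, 20 in MI 2 and none in the other 5. Fgf15, the gut hormone of bile acid control, had 6 reads, all in MI_ART 1, and the antisense Fgf2os had 6, all in MI 2. Reads of the members at such levels came in steps: of all their counts from 1 to 16, the values 1, 2, 3, 7, 10, 11 and 15 never occurred, whereas 4 and 5 occurred 7 times each. Over all genes and libraries the count 4 occurred 7688 times and the count 3 occurred 3666 times. For these members a count of 4 to 6 was the lowest step seen above 0, so a floor of 3 reads is below 1 step and low counts may stand for fewer independent reads than they show.

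Of the FGF receptors, Fgfr1 rose. Fgfr1, the main FGF receptor of fibroblasts and heart muscle, was at 42.7, 46.8 and 43.4 CPM in MI_ART, 40.5, 42.8 and 57.5 CPM in MI and 30.0, 32.9 and 25.3 CPM in Sham (chromosome 8, 25518759 to 25575718). No infarcted library overlapped Sham. The rise was 1.60-fold in MI (log2 0.68, SE 0.18, edgeR adjusted p = 0.0161), a call lost without Sham 1 (adjusted p = 0.0514) or Sham 3 (0.0655). In MI_ART it was 1.51-fold (log2 0.59, SE 0.18, edgeR adjusted p = 0.0418), and with single libraries left out it passed only without MI 2 or MI 4 (adjusted p from 0.00559 to 0.143).

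Fgfr2, which in its epithelial form receives Fgf7 and Fgf10, was at 2.69, 1.84 and 1.62 CPM in MI_ART, 2.51, 2.80 and 4.88 CPM in MI and 1.79, 2.13 and 0.632 CPM in Sham. MI did not overlap Sham, with a log2 fold change of 1.16 (SE 0.47, edgeR adjusted p = 0.0828). Fgfr3 was at 2.96, 3.53 and 2.37 CPM in MI_ART, 2.99, 3.67 and 1.71 CPM in MI and 3.15, 2.61 and 1.91 CPM in Sham, and the 3 groups overlapped. Fgfr4 was at 0.0617, 0.0625 and 0 CPM in MI_ART, 0.182, 0.225 and 0.0539 CPM in MI and 0, 0.237 and 0 CPM in Sham. Fgfrl1, a receptor without a kinase domain, was at 3.25, 6.95 and 2.60 CPM in MI_ART, 3.63, 3.06 and 6.59 CPM in MI and 5.66, 6.64 and 4.90 CPM in Sham. Fgfr1 made up 89.8% ± 1.71 of the reads of the 4 kinase receptors in MI_ART, 87.9% ± 1.59 in MI and 87.8% ± 2.64 in Sham (SD, n = 3 each), with an exact permutation p of 1.0 for MI against Sham.

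Of the binding proteins that carry FGFs from the matrix, Fgfbp3 averaged 2.51 ± 0.643 CPM in MI_ART, 2.00 ± 0.727 in MI and 2.70 ± 1.26 in Sham (SD, n = 3 each), and Fgfbp1 reached at most 0.306 CPM. Fgfr1op, which encodes a centrosome protein, was at 6.13, 5.94 and 19.0 CPM in MI_ART, 7.69, 18.7 and 11.7 CPM in MI and 24.7, 24.6 and 11.0 CPM in Sham, and the libraries of each group spread widely. Fgfr1op2 averaged 59.5 ± 19.4 CPM in MI_ART, 65.0 ± 13.7 in MI and 101 ± 12.7 in Sham, and its log2 fold change in MI of -0.63 (edgeR adjusted p = 0.0944) turned to 0.22 with total counts.

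Of the intracellular FGF genes, Fgf12 and Fgf13 spread widely between libraries of a group. Fgf12 (chromosome 16, 28157783 to 28753243) was at 11.0, 44.9 and 0.111 CPM in MI_ART, 45.7, 40.8 and 34.1 CPM in MI and 36.9, 10.8 and 34.8 CPM in Sham. MI_ART 3 had 9 reads of Fgf12, against 892 and 3594 in MI_ART 1 and 2. Myl7 was at 173, 803 and 1.96 CPM in MI_ART, 453, 347 and 989 CPM in MI and 822, 168 and 576 CPM in Sham. In MI_ART and in Sham the libraries stood in the same order for Fgf12 and Myl7, while in MI the order differed.

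Fgf12 was among 11 genes at least 20-fold lower in MI_ART 3 than in both other MI_ART libraries, of 10790 genes at 5 CPM or more in those 2. Besides Fgf12 the 11 hold the atrial genes Myl7, Myl4, Sln (sarcolipin) and Mybphl, and Sbk3, Tmem163, Klhdc7a, Plac9b, Gemin4 and Rpl29. Gemin4 had 3 reads in Sham 1 and in Sham 3, Klhdc7a had 0 in Sham 1, Sham 2 and MI 3, and Plac9b had 0 in MI 2. By the same rule within its own group, MI 4 had 30 genes lower, and each other library had 1 to 5. The set of 11 was chosen after its values were seen. No comparison of Fgf12 passed (edgeR adjusted p = 0.753 in MI against Sham and 0.836 in MI_ART against MI), and the part of atrial muscle content in its levels was not tested.

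Fgf13 (chromosome X, 59062139 to 59585572), which modulates sodium channels, was at 28.0, 26.1 and 30.7 CPM in MI_ART, 23.3, 17.3 and 5.88 CPM in MI and 14.7, 57.5 and 62.0 CPM in Sham. Sham 1 lay below Sham 2 and 3 and within the range of MI. The log2 fold change in MI against Sham was -1.53 (SE 0.56, edgeR adjusted p = 0.0592), and it passed without Sham 1 (-1.95, adjusted p = 0.0142) or MI 2 (-1.95, adjusted p = 0.0444). Fgf13 made up 61.0, 33.4 and 86.1% of the reads of the 4 intracellular genes in MI_ART, 31.2, 27.2 and 13.4% in MI and 24.8, 75.7 and 59.6% in Sham. MI_ART did not overlap MI in this share, with an exact two-sided permutation p of 0.1, again the lowest possible, and 0.6 after adjustment over 12 share comparisons. The share of Fgf12 was 24.0, 57.5 and 0.312% in MI_ART, 61.1, 64.2 and 77.3% in MI and 62.3, 14.3 and 33.4% in Sham. It was highest in MI 4 and lowest in MI_ART 3, the libraries with the lowest and the highest ratio of Myl2 to Myl7. A share also rises when the other genes fall. In MI 4 Fgf12 itself was the lowest of the MI libraries, at 34.1 CPM, as was Fgf13, so its share there does not show a higher Fgf12.

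**Figure D4:**
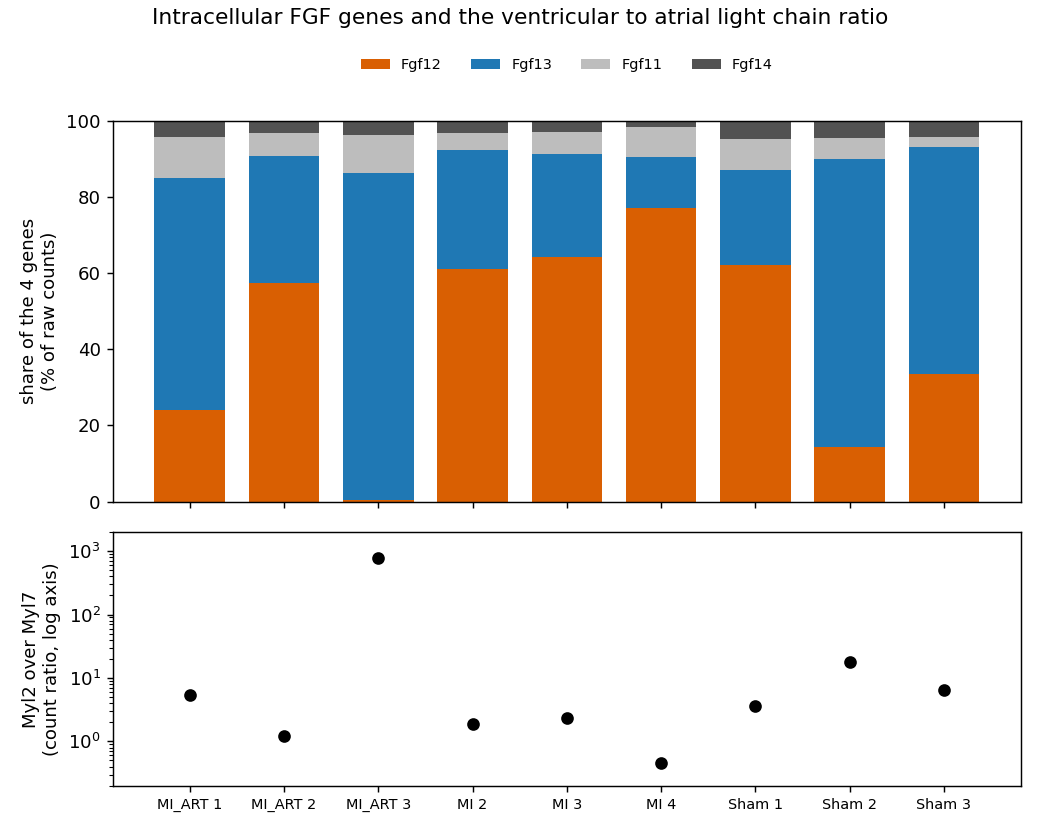
Top, share of raw reads of the 4 intracellular FGF genes (%) in each of the 9 libraries as stacked bars. Bottom, count ratio of Myl2 to Myl7 in the same libraries on a log axis. Fgf12 takes 0.312% in MI_ART 3, where the ratio is 784, and 77.3% in MI 4, where the ratio is 0.460. In CPM, Fgf12 in MI 4 (34.1) was the lowest of the MI libraries.

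Fgf14 was at 1.91, 2.36 and 1.32 CPM in MI_ART, 2.31, 1.83 and 0.668 CPM in MI and 2.71, 3.46 and 4.44 CPM in Sham, with no overlap between either infarcted group and Sham. Its log2 fold change in MI was -1.14 (SE 0.45, edgeR adjusted p = 0.0785), and it passed without MI 2 (adjusted p = 0.0488). Fgf11 averaged 4.41 ± 0.793 CPM in MI_ART, 3.51 ± 0.111 in MI and 3.94 ± 1.11 in Sham (SD, n = 3 each). Of 10 tested subunits of the voltage-gated sodium channels that these proteins bind, 5 fell and 1 rose in MI against Sham (median log2 fold change -0.50). Among all tested genes 14.3% fell and 18.8% rose in MI, and 7.41% fell in MI_ART. With total counts 2 subunits fell and 1 rose in MI (median 0.34). The median was also above 0 by DESeq2 and with no low count filter (0.24 each), and 3 rather than 5 fell without Sham 3, MI 3, MI 4 or MI_ART 1. In MI_ART against Sham 2 fell, none without Sham 2, MI_ART 1 or MI_ART 3, and with total counts 3 rose and none fell. The accessory subunit Scn4b fell 7.51-fold (log2 -2.91, or -3.53 without MI 2), Scn4a 4.82-fold and the atypical channel Scn7a 2.31-fold in MI, the last not with total counts.

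With artesunate after infarction no member passed against vehicle. Without adjustment 3 of 28 members had p under 0.05 in the edgeR test, against 6.96% of all tested genes, limma-voom called none, and DESeq2 called 1, Pdgfrl. Pdgfrl had a log2 fold change of -1.08 (SE 0.24, edgeR unadjusted p = 0.00120, adjusted p = 0.570, DESeq2 adjusted p = 0.0218). Fgf16 had 0.95 (SE 0.27, edgeR unadjusted p = 0.00547, adjusted p = 0.656) and Fgf1 had 0.72 (SE 0.29, edgeR unadjusted p = 0.0322, adjusted p = 0.709). Among these 3 the MI_ART libraries did not overlap MI and lay nearer to Sham than MI did, and both comparisons share the MI libraries. MI_ART lay wholly above MI in 5 members (Fgf1, Fgf9, Fgf13, Fgf16 and Fgf18) and wholly below in 1 (Pdgfrl), which is 21.4% of members, against 13.9% of all genes (7.38% above and 6.52% below). MI 4 was the lowest MI library in 4 of these 5 ligands and intracellular genes, the exception being Fgf18, and the highest in Pdgfrl. Skeletal muscle markers also set MI apart, with a summed level over 9 genes of 3.21 to 7.66 CPM in MI_ART, 37.9 to 110 CPM in MI and 2.47 to 4.37 CPM in Sham. Of these 9 genes 4 had enough reads for a test. Myod1 was at 0 in MI_ART and in MI, Myh2 and Myh4 were at 0 in MI_ART, and Myh1, Myh4 and Tnnc2 were at 0 in Sham. The fast fibre gene Tnnt3 gave 21.8, 33.1 and 63.5 CPM of the sum in MI 2, MI 3 and MI 4. Tnnt3 was one of the 2 genes of the whole table called in MI_ART against MI (edgeR adjusted p = 0.0447, lower in MI_ART). The part of skeletal muscle in these differences was not tested.

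Genes that act around the receptors were read as lists. Of 22 co-receptors and heparan sulfate proteins 9 rose and none fell in MI against Sham (median log2 fold change 0.46, against 0.04 over all tested genes), and in MI_ART 6 rose and none fell (0.33, against 0.01). Among all tested genes 18.8% rose in MI and 12.9% in MI_ART. Without MI 4 the MI_ART count was 10, and with total counts 16 rose in each infarcted group. With total counts 9528 of all 19326 tested genes rose in MI and 8032 in MI_ART, a background for this list and those below. Sdc1, Sdc3 and Sdc4, syndecans that carry heparan sulfate at the cell surface, rose 4.45-fold, 3.84-fold and 3.34-fold in MI. Hs6st2, which sulfates heparan chains, rose 5.04-fold to 6.00 ± 1.27 CPM in MI, against 1.19 ± 0.163 CPM in Sham (SD, n = 3 each, edgeR adjusted p = 0.000316).

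Of 17 tested ERK feedback inhibitors and FGF-ERK target genes, 10 rose and 1 fell (the ERK inhibitor Spred2, log2 -0.44) in MI, and 9 rose in MI_ART. The shares that rose among all tested genes were 18.8% in MI and 12.9% in MI_ART. The fall in MI was not stable. With single libraries left out in turn, 1 gene of the list fell only without MI 4, and otherwise none did. Over all genes the count higher in MI_ART was 2488, but 1596 without MI_ART 1, 1797 without MI_ART 3, 1838 without Sham 2 and 1778 without Sham 3. The MI_ART count of this list also rested on single libraries, with 3 without MI_ART 1, 4 without MI_ART 3 and 5 without Sham 2 or Sham 3. With total counts 14 rose in MI and 15 in MI_ART, and none fell. The median log2 fold change was 0.88 in MI and 0.74 in MI_ART, the same with Fosl1 set against a floor of 3 reads in Sham. Etv4, an ETS factor induced by FGF signals in development, rose 19.2-fold (log2 4.26, or 3.65 without MI 4) to 5.48 ± 3.32 CPM in MI, against 0.284 ± 0.123 CPM in Sham (SD, n = 3 each, edgeR adjusted p = 0.000402). Phlda1 and Myc rose 3.81-fold and 3.66-fold. Fosl1, a growth-factor-induced AP-1 subunit, had 54, 11 and 20 reads in MI_ART, 69, 75 and 101 in MI and none in Sham, and no fold is given because low counts came in steps. Many signals besides FGF and PDGF reach ERK, and these genes do not tell them apart.

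Of 12 PDGF activators, co-receptors and receptor phosphatases 7 rose and none fell in MI (median 1.07), and 6 rose in MI_ART (0.93). Of all tested genes 18.8% rose in MI and 12.9% in MI_ART. The list includes Plau, the urokinase that can release active PDGF-D, 5.58-fold higher, and Sparc, a matrix protein that binds PDGF, 5.60-fold higher, in MI than in Sham. Lrp1, a co-receptor of Pdgfrb, rose 3.14-fold and the phosphatase Ptpn1 3.73-fold. Of 27 adaptors and RAS-ERK and PI3K relay genes 3 rose and 7 fell in MI (median -0.37), a count to be read against the 33.1% of all genes called, with Src, Mapk3 and Shc1 2.24-fold, 2.16-fold and 1.97-fold higher and Pik3r1 2.13-fold lower. The 7 that fell became 2 without Sham 2 and 4 without Sham 1, Sham 3, MI 3 or any 1 MI_ART library, and the 3 that rose became 5 without MI 3 or MI 4. In MI_ART 2 rose and none fell, but 3 rose and 8 fell without MI 4, 1 rose without MI_ART 2 or MI_ART 3, and none passed without Sham 1, Sham 3 or MI_ART 1. Over all genes MI_ART gave 2488 higher and 1433 lower in the main fit, and 3434 higher and 2896 lower without MI 4. With total counts that list gave 12 higher and none lower in MI as in MI_ART. In MI_ART against MI no gene of these 5 lists passed by edgeR.

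**Figure D5:**
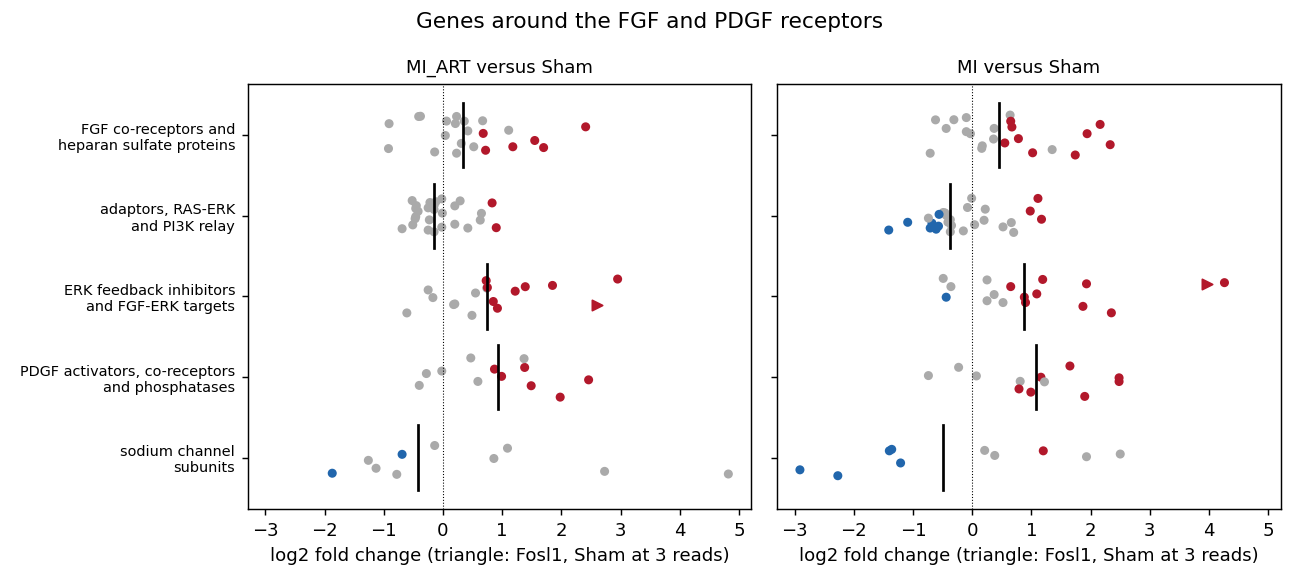
Log2 fold change against Sham of the tested genes in 5 lists around the receptors, in MI_ART and in MI, with each list's median as a black line. Red and blue points passed an edgeR adjusted p of 0.05, grey points did not, and the triangle is Fosl1 with Sham set at a floor of 3 reads. The co-receptor, ERK target and PDGF activator lists lie mainly right of 0, and the relay and sodium channel medians lie left of it, or right of it with total counts.

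Platelet and macrophage markers, whose cells can carry PDGF, were higher after infarction. Over all 19326 tested genes 18.8% rose and 14.3% fell in MI against Sham, and with total counts 9528 rose and 644 fell. Of 9 tested platelet and megakaryocyte markers 4 rose in MI against Sham, with a summed level of 59.6 to 113 CPM in MI_ART, 88.0 to 160 in MI and 13.4 to 16.9 in Sham, where Gp5 and Gp6 were at 0. Of that sum Pf4, which macrophages also express, gave 101, 50.3 and 86.8 CPM in MI_ART, 76.6, 83.5 and 135 CPM in MI and 10.2, 9.28 and 13.3 CPM in Sham. Of 10 macrophage markers 9 rose, with a summed level of 897 to 1500 CPM in MI_ART, 1240 to 1840 in MI and 219 to 279 in Sham, and none at 0. Of 9 endothelial markers none rose and 2 fell (Kdr and Tek, receptors for vessel growth factors), with a summed level of 827 to 871 CPM in MI_ART, 816 to 1290 in MI and 891 to 964 in Sham, while with total counts 7 rose and none fell. The part of these cells in the levels of Pdgfb and Pdgfc was not tested.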

How the data were processed

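The authors deposited unnormalized read counts for 55421 Ensembl gene IDs. The submitters' processing notes name HISAT, featureCounts 1.5.0-p3, DESeq 1.8.3 and GRCm38. Whether counting used strand, and how multiply mapped reads were treated, is not given in the sources used here. The 9 per-sample files equal the series table in every row. Coordinates and overlaps are those of RefSeq genes on GRCm38, matched by symbol or synonym for all 40 members. Besides Fgf1 and Fgf2, Pdgfd overlaps Ddi1, Fgfr1 overlaps Gm16159 and Gm31288, Fgf7 overlaps Fam227b, and Fgf14 overlaps Itgbl1 among others. Fgf12, Fgf13, Pdgfb and Pdgfra overlap microRNA genes, and the first of these also other genes with Gm names, as does Fgf13. Reads of these overlaps cannot be assigned either.

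The main test was edgeR 4.0.16 under R 4.3.3: filterByExpr, TMM (trimmed mean) scaling, 1 fit of all 9 libraries with a mean per group, quasi-likelihood F tests and Benjamini-Hochberg adjustment over 19326 genes, called under 0.05. SE is the log2 fold change over the root of F. DESeq2 1.42.0 and limma 3.58.1 were alternatives. The fits were tested on simulated data. Shares were to be scaled by transcript length, but no length was at hand, so raw counts were used. Floors cover counting error only.

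Same-numbered libraries were not paired, with correlations of their deviations from -0.035 to 0.093.

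Values in every library are given for called members, receptors, PDGF ligands and the 3 members with the smallest p in MI_ART versus MI. Of each list the 4 genes with the smallest p in MI versus Sham are named. Some sodium channel genes are not reported here. The members, lists and tests were chosen with earlier results of these data known.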

Additional observations from a re-analysis of the deposited data

How the results depend on the processing

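Of the called members, Fgf16, Pdgfb, Pdgfc and Pdgfrl in MI against Sham passed under every alternative run. With total counts 9 members rose and 1 fell in MI against Sham, and 8 rose and 0 fell in MI_ART against Sham. Over all 19326 tested genes 9528 rose and 644 fell in MI, and 8032 rose and 124 fell in MI_ART. This scaling moved the median of all genes by 0.88 and 0.75. The log2 fold change then changed sign in 9 of the 28 tested members in MI against Sham and in 10 in MI_ART against Sham. Of those whose fold change the text gives, these were Pdgfd in MI (0.14) and MI_ART (0.09), Fgfr1op2 in MI (0.22) and Fgf1 in MI_ART (0.00). DESeq2 called 7 members higher in MI against Sham, 1 lower in MI_ART against MI and 3 lower in MI_ART against Sham. Beyond single libraries, the relay list in MI_ART against Sham gave 3 higher and 6 lower with the 2 groups alone and 3 higher and 8 lower with the replicate block. In MI_ART against Sham the count lower was 0 with no low count filter, 2 with a filter of 1 CPM, 2 with limma-voom and 5 without MI 4 and MI_ART 3 together, and with the 2 groups alone it was 6 higher and 4 lower. With the replicate block that comparison gave 5 higher and 4 lower, and the counts in MI against Sham (4 and 4) and in MI_ART against MI (0 and 0) did not change. The library numbers are not shown to pair the samples.

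With each library left out in turn, MI against Sham gave 3 to 6 members higher and 3 to 6 lower, MI_ART against MI gave 0 and 0 throughout, and MI_ART against Sham gave 1 to 6 higher and 0 to 6 lower. In MI_ART against Sham the count higher was 1 without Sham 1, Sham 2, Sham 3 or MI_ART 3 and 6 without MI 4, and the count lower was 0 without any Sham library, MI 3, MI_ART 1 or MI_ART 2, 2 without MI 2 and 6 without MI 4. Over all genes this comparison ran from 1596 to 3434 higher and from 455 to 2896 lower, with the highest counts without MI 4. The mean share of Fgf13 among the intracellular genes ranged from 47.2 to 73.6% in MI_ART, 20.3 to 29.2% in MI and 42.2 to 67.7% in Sham with 1 library left out. The causes were not tested. The stepped low counts limit what can be said of members with few reads.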
